A study of Mus musculus with 2 samples.

Results

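The 35 genes described here encode the enzymes of glycolysis, the glucose and lactate carriers, the proteins that take pyruvate into mitochondria and into acetyl-CoA, and 4 enzymes of the pentose phosphate pathway. They were chosen by gene symbol to cover the steps of the pathway, and all 35 were found among the 27998 genes listed in both count matrices. The series compared wild type AB2.2 cells, an established mouse embryonic stem cell line, with PHD2 knockout AB2.2 cells. Both had been differentiated for 4 days toward mesendoderm, the common precursor of mesoderm and endoderm, and were profiled with the 10x Genomics droplet method. Each group was 1 library, so no test between them was possible, and the intervals of levels, ratios and shares cover counting error only. The sources used here do not say which part of the PHD2 gene was altered, whether the knockout cells are 1 clone, or what oxygen level the cells were kept at.

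Glycolysis splits glucose into pyruvate in the cytosol, and pyruvate is then either reduced to lactate and exported or carried into mitochondria and oxidised by the pyruvate dehydrogenase complex. Pluripotent cells are known for a high rate of glycolysis. PHD2, encoded by Egln1, is a prolyl hydroxylase that marks the alpha subunits of hypoxia-inducible factor (HIF) for destruction when oxygen is present, and many glycolysis genes are textbook targets of HIF.

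After removal of poor cells and likely doublets, 8515 wild type cells (201481884 unique molecular identifiers, UMIs; median 20434 per cell) and 6927 knockout cells (157754893 UMIs; median 20999) were kept. Levels are UMIs summed over the cells of a set and scaled to the total of all genes in that set, in the usual unit CPM. Of 8 pluripotency markers, 7 were at 5 CPM or more in both libraries (1266 CPM summed in wild type, 930 CPM in the knockout), and of 8 primitive streak and mesoderm markers 3 were at that level in wild type and 6 in the knockout (59.4 and 866 CPM summed). No definitive endoderm or neuroectoderm marker reached 5 CPM in either library. The 4 neuroectoderm markers summed to 0.898 CPM in wild type and 0.292 CPM in the knockout. Summed markers of trophoblast, fibroblasts, and blood and endothelium were higher in the knockout. The 4 trophoblast markers summed to 5.24 and 22.6 CPM (of which Cdx2, which the posterior streak also expresses, was at 1.30 and 16.4 CPM). The 7 fibroblast markers summed to 2.72 and 10.8 CPM (Cdh11 at 0.119 and 7.13 CPM). The 4 blood and endothelium markers summed to 0.938 and 5.46 CPM, with Hbb-bh1 at 0 in both. Cdx2 and Cdh11 were the only 2 of these at 5 CPM or more, in the knockout, and the part of these markers in the results was not tested. Egln1 itself was at 18.2 CPM in the wild type and at 13.6 CPM in the knockout, 1.33-fold lower (1.26 to 1.41).

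The hypoxia response element that HIF binds has the core letters ACGTG or, as the other form, GCGTG, both searched here on both strands, so that 1 palindromic CACGTG holds 2 overlapping matches of ACGTG. RefSeq promoter windows (GRCm38.p6, 250 bases before to 50 after a start) were found for 34 of the 35 genes, 50 windows in all. At least 1 ACGTG was present in 42% of these windows, against 19.6% of all 32851 RefSeq windows and 27.1% of the windows of genes at 5 CPM or more. The letters GCGTG were present in 60% of the windows, against 32.4% and 53.5%. The 6 windows printed here belong to genes that the results turn on: Ldha, Pgk1, Pfkl and Pfkp were at least 1.5-fold higher in the knockout, and Hk2 and Gapdh were not. They read 5′ to 3′ on the strand of the gene, with every match of either motif on either strand in capitals.
Ldha (chr7:46845554-46845853, plus strand): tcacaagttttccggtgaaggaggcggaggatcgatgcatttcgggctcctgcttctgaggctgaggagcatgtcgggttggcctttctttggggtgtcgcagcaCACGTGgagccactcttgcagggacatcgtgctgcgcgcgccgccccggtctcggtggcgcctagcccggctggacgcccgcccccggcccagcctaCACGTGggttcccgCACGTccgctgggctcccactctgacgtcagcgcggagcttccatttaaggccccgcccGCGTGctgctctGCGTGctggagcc
Pgk1 (chrX:106186850-106187149, plus strand): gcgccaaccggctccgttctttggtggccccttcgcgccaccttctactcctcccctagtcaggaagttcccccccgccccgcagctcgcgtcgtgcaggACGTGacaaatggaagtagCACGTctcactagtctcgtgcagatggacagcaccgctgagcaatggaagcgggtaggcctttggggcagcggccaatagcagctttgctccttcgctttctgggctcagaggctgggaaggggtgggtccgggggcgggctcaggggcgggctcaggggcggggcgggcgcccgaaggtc
Pfkl (chr10:78009758-78010057, minus strand): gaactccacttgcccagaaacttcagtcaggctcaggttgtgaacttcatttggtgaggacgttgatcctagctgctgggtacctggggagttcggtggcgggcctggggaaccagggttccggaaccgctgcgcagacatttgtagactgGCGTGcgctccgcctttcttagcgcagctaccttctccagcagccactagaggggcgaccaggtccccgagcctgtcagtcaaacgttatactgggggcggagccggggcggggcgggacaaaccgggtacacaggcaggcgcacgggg
Pfkp (chr13:6648722-6649021, minus strand): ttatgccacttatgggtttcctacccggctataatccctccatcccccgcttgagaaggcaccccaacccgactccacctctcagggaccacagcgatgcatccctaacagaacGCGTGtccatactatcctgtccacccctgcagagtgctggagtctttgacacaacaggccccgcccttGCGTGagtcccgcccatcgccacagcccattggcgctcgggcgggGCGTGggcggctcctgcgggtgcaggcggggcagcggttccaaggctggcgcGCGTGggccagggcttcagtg
Hk2 (chr6:82774405-82774704, minus strand): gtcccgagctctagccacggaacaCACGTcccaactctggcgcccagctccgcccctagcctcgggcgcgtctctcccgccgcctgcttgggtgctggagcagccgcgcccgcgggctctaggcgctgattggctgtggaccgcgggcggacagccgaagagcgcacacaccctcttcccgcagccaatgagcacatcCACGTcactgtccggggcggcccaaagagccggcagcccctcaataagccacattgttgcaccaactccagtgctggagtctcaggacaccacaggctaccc
Gapdh (chr6:125165724-125166023, minus strand): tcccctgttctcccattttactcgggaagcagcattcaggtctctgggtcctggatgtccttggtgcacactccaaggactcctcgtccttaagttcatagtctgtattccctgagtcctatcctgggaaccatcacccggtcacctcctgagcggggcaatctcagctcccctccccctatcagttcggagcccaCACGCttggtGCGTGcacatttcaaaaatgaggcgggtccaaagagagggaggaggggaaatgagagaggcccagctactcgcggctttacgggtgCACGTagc
The Ldha window printed held 5 matches of ACGTG and 2 of GCGTG, whereas a second Ldha window (chr7:46846832-46847131, plus strand), not printed, held 0 and 2. The other genes shown have 1 window each. The Pgk1 window held 2 of ACGTG and 0 of GCGTG. The Hk2 window also held 2 matches of ACGTG, with 0 of GCGTG, and the Gapdh window held 1 and 2, so matches were present on both sides of the 1.5-fold threshold. Pfkl and Pfkp had 0 matches of ACGTG, with 1 and 4 of GCGTG. Over all windows of a gene, ACGTG was present in 2 of the 8 genes that were 1.5-fold higher in the knockout, in 12 of the 21 within 1.5-fold and in 4 of the 5 below 5 CPM. Counted by gene in the same way, it was present in 21.8% of all genes with a window and 31.3% of those at 5 CPM or more. Either of the 2 motifs was present in 7 of the 8, 19 of the 21 and 5 of the 5. The share of all genes with either motif was not computed. By gene, GCGTG alone was present in 35.2% of all genes with a window and 59.4% of those at 5 CPM or more. A match is a description of the letters and not of binding.

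The first comparison asked how the whole pathway differed between the 2 libraries. A gene counted as measured where its higher group reached 5 CPM, and as higher or lower where the plain ratio of CPM was at least 1.5-fold. Of the 35 genes, 30 were measured, each of them at 5 CPM or more in both libraries, and 8 were higher in the knockout: Pfkl, Pfkp, Tpi1, Pgk1, Ldha, Ldhb, Mpc1 and Pdk1. Among all 8540 measured genes 11.8% were higher in the knockout. None of the 30 was lower by this rule, against 2.35% of all measured genes, and the nearest was the enolase gene Eno3. The median log2 ratio of the 30 genes (pseudocount 1 CPM) was 0.32 (interval over the genes 0.10 to 0.56). That of all measured genes was 0.16, which lies within this interval, and 19 of the 30 lay above it. Over all 35 genes, including the 5 below 5 CPM, the median was 0.35.

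The counts by role are small and are read beside the 11.8% higher and 2.35% lower of all measured genes, and differences between roles were not tested. Of the 17 enzymes that take glucose to lactate 15 were measured, and 6 of them were higher, with a median log2 ratio of 0.56. The summed level of the 17 was 8545 CPM in wild type and 10780.0 CPM in the knockout. Of the 8 genes of pyruvate entry 7 were measured and 2 were higher (median 0.30). All 4 glucose and lactate carriers and all 4 pentose phosphate genes were measured, and 0 of either group differed by 1.5-fold (medians 0.02 and 0.11).

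**Figure D1:**
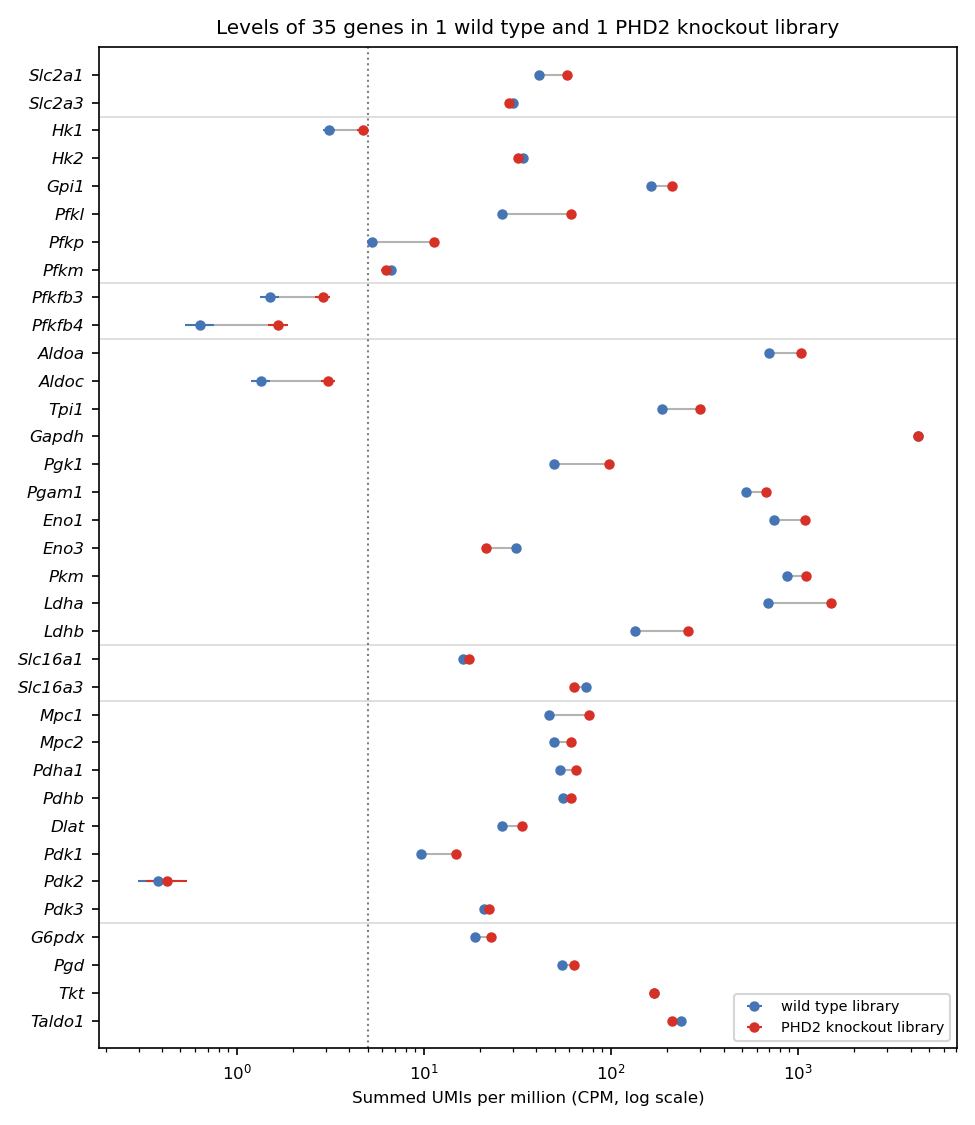
Level of each of the 35 genes in CPM (x axis, log scale) in the wild type (blue) and PHD2 knockout (red) library, in pathway order from glucose uptake at the top to the pentose phosphate pathway at the bottom. Bars are exact 95% Poisson intervals (most are narrower than the points), each grey segment joins the 2 values of a gene, the dotted line marks 5 CPM, and the longest segments among the measured genes are those of Pfkl, Ldha and Pfkp, while the points of Gapdh overlap.

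Glucose enters through facilitative carriers. Slc2a1, which encodes the widespread carrier GLUT1, was at 41.1 CPM in the wild type and at 58.3 CPM in the knockout, 1.42-fold higher (1.38 to 1.46). Slc2a3, which encodes the high-affinity carrier GLUT3, was at 29.96 and 28.7 CPM. The Slc2a1 share of the UMIs of both carriers was 57.8% in wild type (exact binomial 57.0 to 58.6) and 67.0% in the knockout (66.3 to 67.8).

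Hexokinase traps glucose as glucose 6-phosphate. Hk2 was at 33.9 CPM in the wild type and at 31.9 CPM in the knockout. Hk1 was below 5 CPM in both libraries, at 3.12 and 4.71 CPM, a 1.51-fold difference (1.36 to 1.68) that rests on 628 and 743 UMIs. Hk1 made up 8.42% of the hexokinase UMIs in wild type (7.80 to 9.07) and 12.9% in the knockout (12.0 to 13.8). An antisense gene, Hk1os, overlaps Hk1 and was at 0.883 and 1.24 CPM.

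Gpi1, the isomerase that makes fructose 6-phosphate, was at 164 CPM in the wild type and at 212 CPM in the knockout, 1.30-fold higher (1.28 to 1.32). Phosphofructokinase follows as the committed step, and the genes of its 3 isoforms differed from one another. The liver-type gene Pfkl (mm10 chromosome 10, 77986947 to 78010083, minus strand) was at 26.0 CPM in the wild type and at 61.4 CPM in the knockout, 2.36-fold higher (2.28 to 2.44). The platelet-type gene Pfkp was at 5.28 and 11.4 CPM, 2.16-fold higher (2.001 to 2.33), and the muscle-type gene Pfkm was at 6.65 and 6.30 CPM. The Pfkl share of phosphofructokinase UMIs was therefore 68.6% in wild type (67.5 to 69.6) and 77.6% in the knockout (76.9 to 78.4), while the Pfkm share was 17.5% (16.7 to 18.4) and 7.96% (7.49 to 8.45). Pfkp overlaps Pitrm1 (22.5 and 29.5 CPM) and Pfkm overlaps Senp1 (25.4 and 25.4 CPM), both on the opposite strand, and whether the counting used strand is not stated in the sources used here.

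Fructose 2,6-bisphosphate, the activator of phosphofructokinase, is set by bifunctional enzymes. Their genes Pfkfb3 and Pfkfb4 were below 5 CPM in both libraries. Pfkfb3 was at 1.504 CPM in the wild type and at 2.88 CPM in the knockout (303 and 454 UMIs), a ratio of 1.91 (1.65 to 2.22). Pfkfb4 was at 0.635 and 1.66 CPM (128 and 262 UMIs), a ratio of 2.61 (2.11 to 3.26).

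Aldolase and triose phosphate isomerase yield the triose phosphates. Aldoa, the main aldolase gene outside liver, was at 703 CPM in the wild type and at 1039.6 CPM in the knockout, 1.48-fold higher (1.47 to 1.49) and so just under the threshold. Aldoc, the brain-type aldolase, was below 5 CPM at 1.35 and 3.07 CPM (ratio 2.29, 1.97 to 2.66). Tpi1, the isomerase, was at 188 and 298 CPM, 1.59-fold higher (1.57 to 1.61). The gene Spsb2 overlaps Tpi1 on the opposite strand and was at 12.7 and 13.4 CPM.

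The next 2 steps stood apart from each other. Gapdh, the dehydrogenase that oxidises glyceraldehyde 3-phosphate, was at 4370 CPM in the wild type and at 4367 CPM in the knockout, with a ratio of 0.999 (0.996 to 1.002). Pgk1, the kinase that makes ATP directly after it, was at 49.6 and 97.5 CPM, 1.97-fold higher (1.92 to 2.02). The Pgk1 gene is on mm10 chromosome X, 106187100 to 106203699, plus strand. A near-identical copy, Pgk1-rs7, was at 0.367 and 0.951 CPM.

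Lower glycolysis was higher in the knockout by less than 1.5-fold at most steps. The mutase gene Pgam1 was at 529 CPM in the wild type and at 673 CPM in the knockout, 1.27-fold higher (1.26 to 1.28). Eno1, the ubiquitous enolase, was at 740.3 and 1089 CPM, 1.47-fold higher (1.46 to 1.48), and its near-identical copy Eno1b was at 16.4 and 20.8 CPM. Eno3, the muscle enolase, went the other way, at 31.3 and 21.5 CPM, 1.45-fold lower (1.39 to 1.52). Pkm, the pyruvate kinase gene, was at 873 and 1101 CPM, 1.26-fold higher.

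Both lactate dehydrogenase genes were higher in the knockout. Ldha (mm10 chromosome 7, 46841475 to 46855627, plus strand), whose subunit predominates where lactate is made, was at 687 CPM in the wild type and at 1506 CPM in the knockout, 2.19-fold higher (2.18 to 2.21). Ldhb, whose subunit predominates in oxidative tissue, was at 134 and 257 CPM, 1.91-fold higher (1.88 to 1.94). The Ldha share of their UMIs was 83.6% in wild type (83.5 to 83.8) and 85.4% in the knockout (85.3 to 85.6).

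The lactate carriers did not follow the dehydrogenases. Slc16a1, which encodes MCT1, was at 16.1 CPM in the wild type and at 17.4 CPM in the knockout. Slc16a3, which encodes the exporter MCT4, was at 73.3 and 63.4 CPM, 1.16-fold lower (1.13 to 1.19).

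Pyruvate crosses the inner mitochondrial membrane through a carrier built from the products of Mpc1 and Mpc2. Mpc1 was at 46.8 CPM in the wild type and at 76.6 CPM in the knockout, 1.64-fold higher (1.59 to 1.68). Mpc2 was at 49.6 and 61.3 CPM, 1.24-fold higher (1.20 to 1.27). The Mpc1 share of the UMIs of both was 48.6% in wild type (47.9 to 49.3) and 55.6% in the knockout (54.9 to 56.2).

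The pyruvate dehydrogenase subunit genes differed by less. Pdha1, which encodes the catalytic alpha subunit, was at 53.6 CPM in the wild type and at 65.1 CPM in the knockout, and Pdhb, its beta subunit, was at 55.4 and 60.9 CPM. Dlat, the acetyltransferase core, was at 26.1 and 33.6 CPM, 1.29-fold higher (1.24 to 1.34). The kinases that switch the complex off differed among themselves. Pdk1 was at 9.72 and 14.8 CPM, 1.52-fold higher (1.43 to 1.61), an interval that spans the 1.5-fold threshold. Pdk3 was at 21.1 and 22.2 CPM, and Pdk2 was near the floor at 0.377 and 0.425 CPM (76 and 67 UMIs).

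In the pentose phosphate pathway, which makes NADPH and ribose from glucose 6-phosphate, the first enzyme G6pdx was at 18.9 CPM in the wild type and at 22.9 CPM in the knockout. Pgd, the next oxidative enzyme, was at 55.0 and 63.8 CPM. Of the non-oxidative enzymes, Tkt was at 169 and 171 CPM, and Taldo1 was at 236 and 212 CPM. The summed level of the 4 was 478 CPM in wild type and 469 CPM in the knockout.

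The size of these ratios depends on how the libraries are scaled. With trimmed mean of M values (TMM) factors the median log2 ratio of all measured genes was -0.05 in place of 0.16, and with median-of-ratios factors it was -0.08. Under both of these, 5 of the 8 genes remained higher by 1.5-fold (Pfkl, Pfkp, Pgk1, Ldha and Ldhb), while Tpi1, Mpc1 and Pdk1 did not, and Eno3 was lower by 1.5-fold. Gapdh, whose log2 ratio was -0.0010 on library totals, was lower in the knockout under both factors, down to -0.25, and in 3 alternatives on the cells it was above 0, by at most 0.04. The log2 ratios of Slc16a1, Pdhb, Pdk3, Pgd and Tkt were positive on library totals and negative under both factors. The factors scale every gene of a library alike, so the gap between the members' median and that of all measured genes could hardly change. It was 0.15 under either factor and 0.16 on library totals.

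Chromosomes 8 and 11 differed in how much RNA they gave from cell to cell, which touches several of the genes. The shares of both chromosomes were taken over the UMIs of all genes except mitochondrial and ribosomal protein genes. A low share of chromosome 8 (under 6.5%) was found in 1215 wild type cells (14.3%) and 3052 knockout cells (44.1%). None of the 35 genes lies on that chromosome. The knockout to wild type ratio of Slc2a1 was 1.02 (0.963 to 1.07) among low-share cells and 1.40 (1.35 to 1.46) among the others, and that of Ldha was 2.59 and 1.83. For Mpc1 the ratio was 1.29 among low-share cells and 1.77 among the others, for Pfkl 2.39 and 2.06, for Pgk1 1.92 and 1.72, and for Eno3 0.482 and 0.746. Mpc1 was under 1.5-fold among low-share cells and Tpi1 among the others. The members' median log2 ratio lay 0.085 above that of all measured genes among low-share cells and 0.11 above it among the others. A high share of chromosome 11 UMIs (over 13%) was found in 85 wild type and 704 knockout cells. These cells were selected for that share, so the levels of the 4 members on chromosome 11 in them are a description only. Within the knockout library Slc16a3 was at 58.7 CPM in other cells and 99.3 CPM in high-share cells, and Aldoc was at 2.60 and 6.66 CPM. Eno3 was at 21.0 and 25.3 CPM and Pdk2 at 0.402 and 0.600 CPM.

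**Figure D2:**
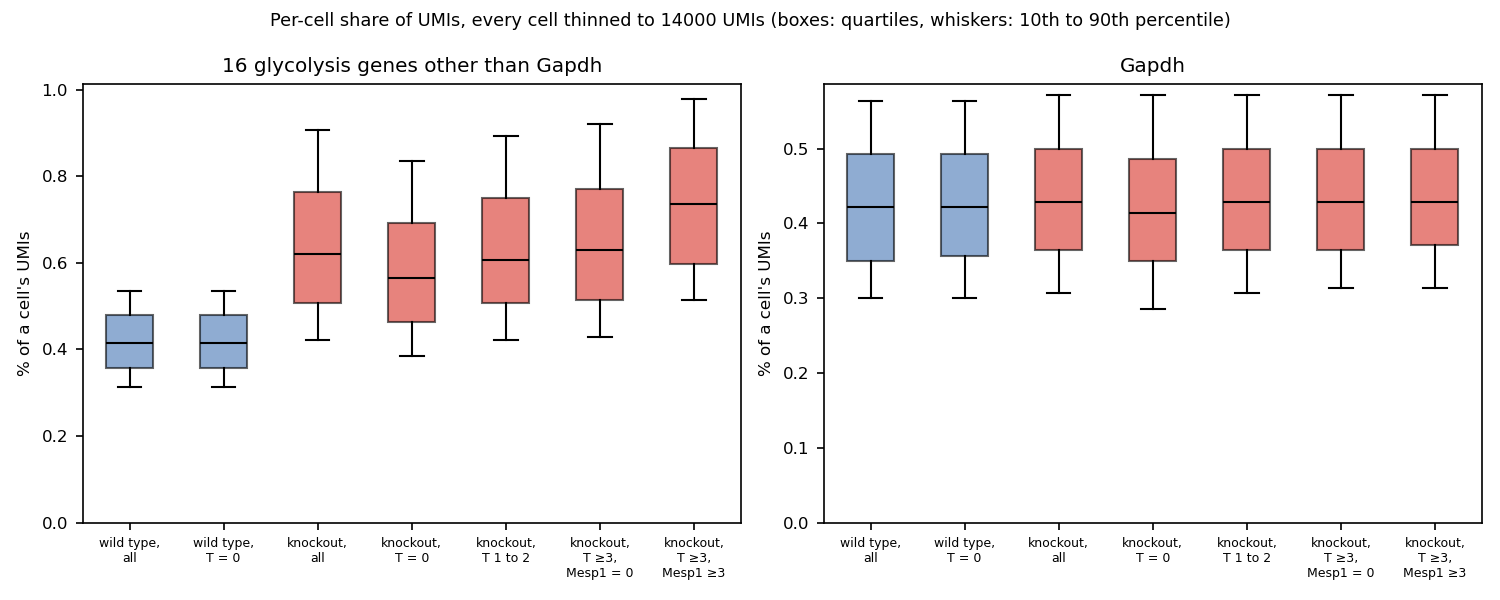
Share of a cell's UMIs (y axis, percent) from the 16 glycolysis genes other than Gapdh (left) and from Gapdh (right), after every cell was thinned to 14000 UMIs, by library and by T and Mesp1 counts after thinning. Boxes are quartiles over cells, lines medians and whiskers the 10th and 90th percentiles, and the left medians of the knockout lie above the wild type boxes (the box of knockout T = 0 cells overlaps them) while the right boxes are at about one height.

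The difference was spread over the knockout cells rather than carried by a few of them. Each cell was thinned to 14000 UMIs, and the 777 cells of wild type and 646 of the knockout that were shallower were left out. The 16 glycolysis genes other than Gapdh made up a median of 0.414% of a wild type cell's UMIs (quartiles 0.357 to 0.479) and 0.621% of a knockout cell's (0.507 to 0.764). Of the knockout cells, 90.9% lay above the wild type median, and 1.96% of wild type cells lay above the knockout median. Leaving out Gapdh, whose level was alike in both libraries, widened this separation, and the set without it was not planned. With Gapdh included, the medians were 0.836% in wild type and 1.05% in the knockout, and the 2 percentages were 82.8% and 10.6%. Gapdh alone made up a median of 0.421% in wild type and 0.429% in the knockout, and the 4 pentose phosphate genes 0.0429% in both. Within the knockout the median of the 16 genes was 0.564% in T = 0 cells, 0.629% in T ≥3 cells without Mesp1 UMIs and 0.736% in T ≥3 cells with 3 or more Mesp1 UMIs, counted after thinning. The glycolysis genes did not share that difference with Mesp1. Before thinning, the median log2 ratio of those measured (Gapdh included) was 0.02, with 0 higher and 2 lower by 1.5-fold, and that of Ldha was 0.50. These are distributions over the cells of 2 libraries, and cells of 1 library are not replicates.

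The second comparison asked whether the levels changed with entry into the primitive streak, which the transcription factor gene T (Brachyury) marks. In the knockout 4486 cells had 3 or more T UMIs (64.8%), 1481 had 1 or 2 and 960 had 0. In wild type 65 cells had 3 or more and 7654 had 0. Between the knockout cells with 3 or more T UMIs and those with 0, 31 of the 35 genes were measured, and 0 were higher or lower by 1.5-fold. Over all 8682 measured genes 2.78% were higher and 2.99% lower. The median log2 ratio was 0.07 for the 31 genes and 0.03 for all genes, and 20 of the 31 lay above the median of all genes.

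The largest differences along T stayed under 1.5-fold. Mpc1 was at 61.4 CPM in T = 0 cells and 82.7 CPM in T ≥3 cells, 1.35-fold higher (1.27 to 1.43). Pfkl was at 49.3 and 65.6 CPM, 1.33-fold higher (1.24 to 1.43), and Ldhb at 209 and 279 CPM, 1.33-fold higher (1.29 to 1.38). Tpi1 was at 241 and 315 CPM and Ldha at 1236 and 1563 CPM. Slc2a3 went the other way, at 36.4 and 27.4 CPM, 1.33-fold lower (1.22 to 1.44). Among cells of low chromosome 8 share the Ldhb ratio was 1.53 (1.45 to 1.61), and among the others the Slc2a3 ratio was 0.666 (0.594 to 0.747).

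The knockout cells with no T UMI were mixed. Their pluripotency markers summed to 1744 CPM, against 695 CPM in T ≥3 cells and 1303 CPM in the T = 0 cells of wild type. Mesp1, a marker of nascent mesoderm, was at 157 CPM in them, against 0.360 CPM in the T = 0 cells of wild type. Their median depth was 19048 UMIs, against 21849.5 in T ≥3 cells. The part of these differences in the values along T was not tested.

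Of the 8 genes higher in the knockout over all cells, 6 were also higher by 1.5-fold among cells without T. Comparing knockout with wild type T = 0 cells alone, 31 genes were measured, and 7 were higher in the knockout, against 12.0% of all 8541 measured genes. These were Pfkp (2.27-fold, 1.96 to 2.63), Pfkl (1.897-fold, 1.77 to 2.04), Ldha (1.81-fold, 1.78 to 1.83), Hk1, Pgk1 (1.73-fold, 1.64 to 1.82), Pdk1 and Ldhb (1.55-fold). None of the 31 was lower, against 1.87% of all measured genes. Hk1 was at 3.08 CPM in the wild type and at 5.36 CPM in the knockout, and counted as measured only through the knockout. Pdk1 was at 9.76 and 16.3 CPM, 1.67-fold higher (1.47 to 1.89). The median log2 ratio was 0.29, and 0.15 for all measured genes, and 22 of the 31 lay above the median of all measured genes.

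The carriers of lactate, pyruvate and glucose had other ratios among T = 0 cells than over the whole libraries. Slc16a3 was at 74.4 CPM in wild type T = 0 cells and 53.4 CPM in those of the knockout, 1.39-fold lower (1.31 to 1.49). Mpc2 was at 49.2 and 69.5 CPM, 1.41-fold higher, against 1.24-fold over all cells. Mpc1 was at 45.1 and 61.4 CPM, 1.36-fold higher (1.28 to 1.45), against 1.64-fold over all cells. Slc2a3 was at 29.2 and 36.4 CPM, and its ratio was 0.839 (0.733 to 0.956) where the chromosome 8 share was low and 1.28 (1.15 to 1.42) in the others. With TMM or median-of-ratios factors 3 of the 7 genes remained higher by 1.5-fold (Pfkl, Pfkp and Ldha). On library totals Ldha was 1.49-fold higher (1.46 to 1.51) in cells of high chromosome 8 share and 2.41-fold (2.35 to 2.47) in cells of low share.

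**Figure D3:**
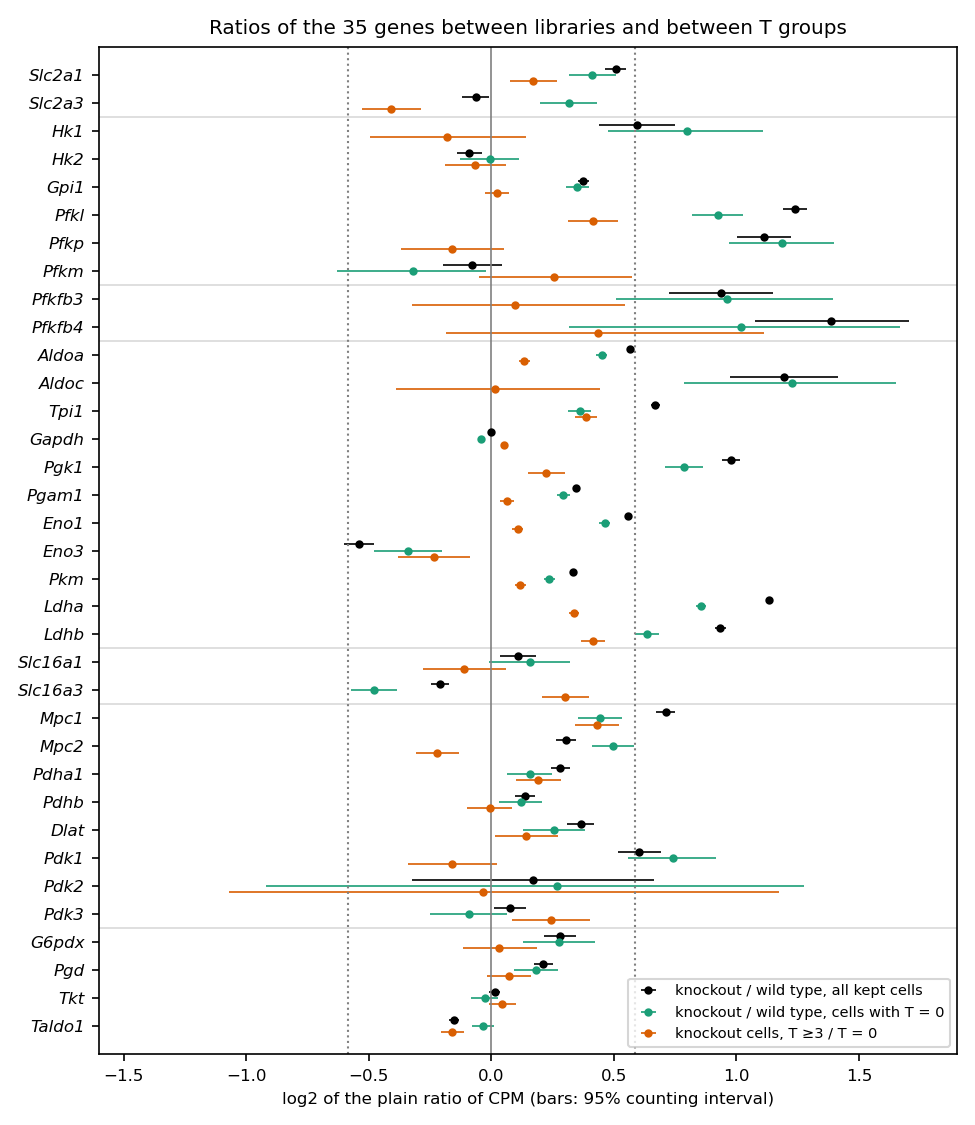
Log2 of the plain ratio of CPM (x axis) for each of the 35 genes between the libraries over all kept cells (black), between the libraries over T = 0 cells (green), and between T ≥3 and T = 0 cells of the knockout (orange). Bars are exact 95% intervals for counting error, dotted lines mark 1.5-fold, and the orange points lie within the dotted lines while black and green points of Pfkl, Pfkp, Pgk1, Ldha and Ldhb lie to their right.

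In wild type the 65 cells with 3 or more T UMIs were deep (median 35227 UMIs, against 20138.5 for T = 0 cells), and their values are given as a description. Hk1 and Mpc1 were higher by 1.5-fold and 0 members were lower, against 9.95% and 1.64% of all measured genes, and Hk1 counted as measured only through the 65 cells, where it had 13 UMIs. Mpc1 was at 45.1 CPM in T = 0 cells and 77.8 CPM in the 65 cells, 1.73-fold higher (1.49 to 1.99), which is the same direction as in the knockout. Ldha was at 684 and 704 CPM, Pfkl at 26.0 and 23.0 CPM, and Pgk1 at 49.7 and 48.3 CPM. Hk2 was at 33.6 and 46.7 CPM, 1.39-fold higher (1.15 to 1.67).

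A finer division of the knockout cells with 3 or more T UMIs was made by Mesp1, with 788 cells at 3 or more Mesp1 UMIs and 2623 at 0. Of 31 measured genes, 0 were higher in the Mesp1 ≥3 cells, against 2.94% of all 8648 measured genes. Lower by 1.5-fold were 4 (Hk1, Pdk1, Mpc1 and Eno3), against 6.67% of all measured genes. Hk1 counted as measured only through the Mesp1 = 0 cells, where it was higher. Mpc1 and Eno3 were under 1.5-fold with no doublets removed, with TMM factors and with means of per-cell CPM. The median log2 ratio was -0.09, and -0.01 for all genes, and 12 of the 31 lay above the median of all genes. Between these 2 sets of cells the pluripotency markers summed to 745 CPM at Mesp1 = 0 and 459 CPM at Mesp1 ≥3, the streak and mesoderm markers to 772 and 2206 CPM, and the fibroblast markers to 4.68 and 29.1 CPM. Of the fibroblast sum 1.41 and 25.9 CPM came from Cdh11, the only 1 of the 7 at 5 CPM or more, while Postn was at 0 in both and Col3a1 and Dcn were at 0 in the Mesp1 ≥3 cells. The blood and endothelium markers summed to 2.42 and 8.90 CPM, of which Kdr made up 0.844 and 7.66 CPM, and the trophoblast markers to 26.5 and 25.7 CPM. Their part in the values was not tested.

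The lactate dehydrogenase genes went in opposite directions with Mesp1. Ldha was at 1445 CPM in Mesp1 = 0 cells and 2040.1 CPM in Mesp1 ≥3 cells, 1.41-fold higher (1.39 to 1.43), while Ldhb was at 297 and 225 CPM, 1.32-fold lower (1.28 to 1.37). The summed level of the 17 glycolysis enzymes was 10844 and 11607.1 CPM, and Ldha made up most of that difference. The Ldha share of their UMIs was 82.9% (82.7 to 83.2) and 90.1% (89.8 to 90.4). Hk1 was at 5.36 and 2.42 CPM, 2.21-fold lower (1.64 to 3.05), while Hk2 was at 31.5 and 33.2 CPM, a ratio of 1.05 whose interval (0.963 to 1.15) includes no difference. The Hk1 share of hexokinase UMIs was 14.5% (13.1 to 16.1) and 6.81% (5.08 to 8.90).

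On the mitochondrial side, Mpc1 was at 89.2 CPM in Mesp1 = 0 cells and 58.3 CPM in Mesp1 ≥3 cells, 1.53-fold lower (1.43 to 1.63), while Mpc2 was at 60.1 and 56.0 CPM. Pdk1 was at 16.3 and 8.26 CPM, 1.98-fold lower (1.68 to 2.34), and its share of the pyruvate dehydrogenase kinase UMIs was 39.7% (37.8 to 41.7) and 27.4% (23.9 to 31.2). Thus Mpc1 was higher in T ≥3 than in T = 0 cells and, among T ≥3 cells, lower in those with Mesp1. Slc2a1 was at 66.1 and 45.4 CPM, 1.45-fold lower (1.35 to 1.56), and Eno3 at 22.4 and 14.7 CPM, 1.52-fold lower (1.34 to 1.73). The carrier gene Slc16a1 was at 15.97 and 21.6 CPM, 1.35-fold higher (1.20 to 1.51).

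**Figure D4:**
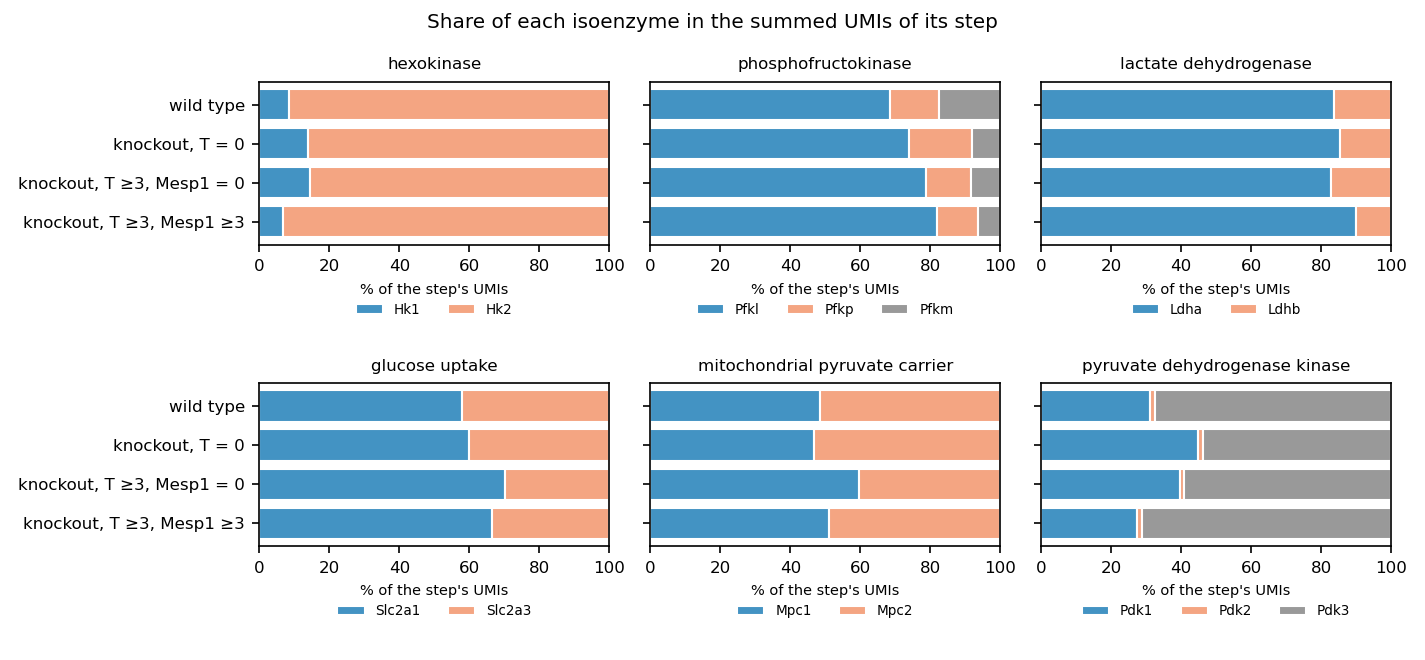
Share of each isoenzyme or paralogue in the summed UMIs of its step (x axis, percent) in wild type and in 3 sets of knockout cells by T and Mesp1 UMIs, for 6 steps. Ldha takes 90.1% of the lactate dehydrogenase UMIs in knockout cells with T ≥3 and Mesp1 ≥3 against 83.6% in wild type, and Pfkm takes 17.5% of phosphofructokinase UMIs in wild type and 8.20% or less in the 3 knockout sets.

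The differences with Mesp1 were also computed in cells that took no part in that comparison, the knockout cells with no T UMI, of which 119 had 3 or more Mesp1 UMIs and 655 had 0. Ldha was at 1106 CPM in the Mesp1 = 0 cells and 2110.5 CPM in the Mesp1 ≥3 cells, 1.91-fold higher (1.85 to 1.97). Pdk1 was at 18.6 and 4.39 CPM, 4.24-fold lower (2.26 to 8.96), and Ldhb at 224 and 126 CPM, 1.78-fold lower (1.58 to 2.02). Mpc1 was at 64.0 and 45.7 CPM, Slc2a1 at 57.0 and 33.8 CPM, and Eno3 at 25.9 and 12.7 CPM, each lower with Mesp1 as among T ≥3 cells. Mpc2 was 1.39-fold higher with Mesp1 (1.19 to 1.63), at 65.8 and 91.7 CPM, while among T ≥3 cells it was 1.07-fold lower. The ratio of Slc16a1 was 1.07 (0.750 to 1.48), against 1.35 among T ≥3 cells. Hk1 was at 5.30 and 3.51 CPM, with an interval of the ratio from 0.274 to 1.38 that includes no difference. Slc2a3 was at 41.0 and 12.7 CPM, 3.22-fold lower (2.21 to 4.86). Between these Mesp1 = 0 and Mesp1 ≥3 cells the pluripotency markers summed to 1911 and 309 CPM. The streak and mesoderm markers, Mesp1 among them, summed to 95.1 and 1747 CPM. The part of these marker differences in the values was not tested. All are cells of the same library and no separate replicate.

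Chromosome 8 share differed with Mesp1 as well, since 546 of the 788 Mesp1 ≥3 cells and 1091 of the 2623 Mesp1 = 0 cells had a low share. Within low-share cells and within the others, Pdk1 was lower with Mesp1 (ratios 0.505 and 0.566), as were Hk1 (0.415 and 0.532), Mpc1 (0.644 and 0.706), Slc2a1 (0.644 and 0.654) and Eno3 (0.655 and 0.604). The Ldha ratio was 1.31 (1.29 to 1.33) in low-share cells and 1.35 (1.32 to 1.38) in the others. Slc2a3 went in opposite directions, with a ratio of 0.551 (0.481 to 0.630) in low-share cells and 1.35 (1.14 to 1.59) in the others.

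**Figure D5:**
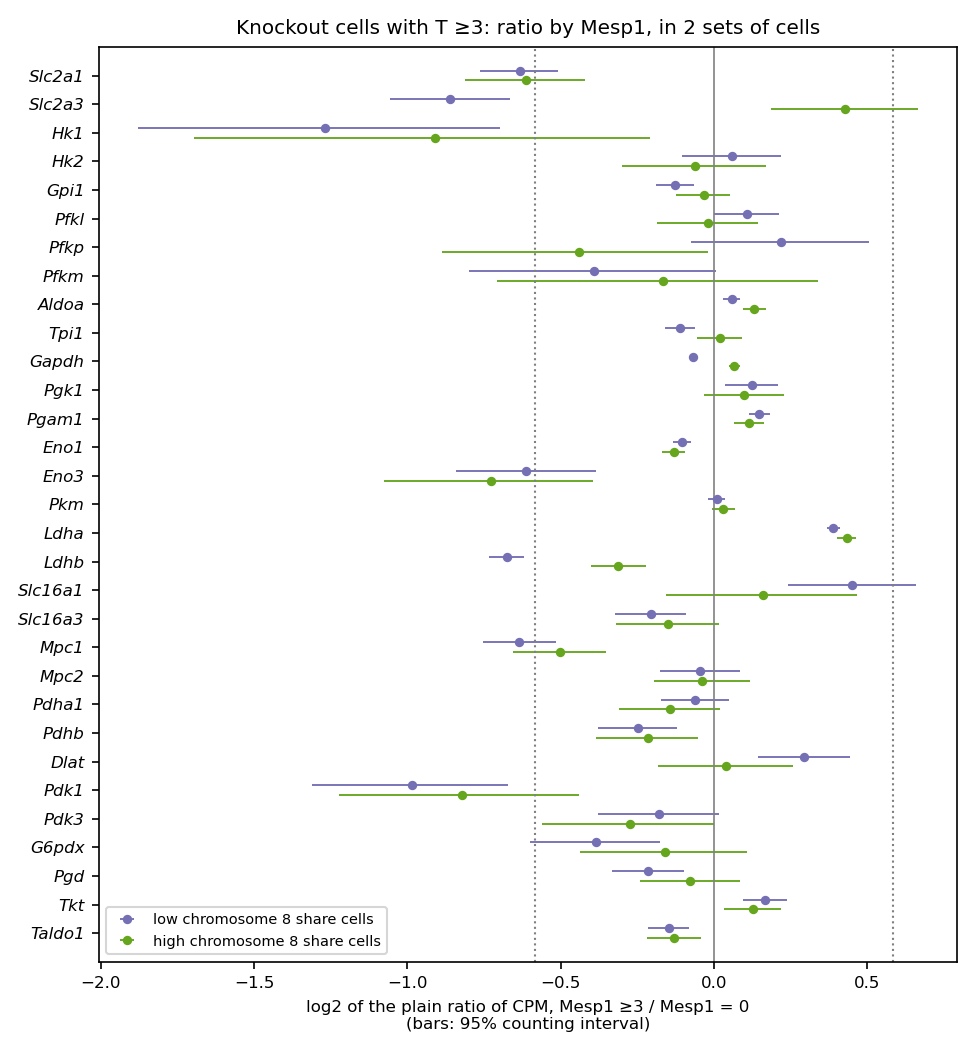
Log2 of the plain ratio of CPM between Mesp1 ≥3 and Mesp1 = 0 cells (x axis) among knockout cells with T ≥3, for the 31 measured genes, within cells of low (purple) and high (green) chromosome 8 share. Bars are exact 95% intervals for counting error and dotted lines mark 1.5-fold; Ldha lies to the right of 0 in both sets, Hk1, Pdk1, Mpc1, Eno3, Slc2a1 and Ldhb lie to the left in both, and Slc2a3 lies on opposite sides.

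Genes next to the 35 in metabolism were read from 9 lists of other pathway genes. Their counts between the libraries are small and are read beside the 11.8% higher and 2.35% lower of all measured genes. Of 20 other isoenzymes and regulators of glycolysis 5 were measured between the libraries and 1 was higher, Pgm2, a phosphoglucomutase (6.33 CPM in the wild type and 17.001 CPM in the knockout, 2.69-fold). The most abundant of these, Tigar, a phosphatase that lowers fructose 2,6-bisphosphate, was at 21.3 and 15.1 CPM. Of 10 glycogen genes 4 were measured and 1 was higher, Ugp2, which makes UDP-glucose (8.30 and 14.5 CPM, 1.74-fold); the most abundant, Gyg, was at 21.3 and 22.6 CPM. Of 11 other transport genes 2 were measured and 0 differed by 1.5-fold. Bsg, the partner protein of the lactate carriers, was at 378 and 474 CPM.

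The remaining lists cover mitochondrial steps and side branches. All 15 tricarboxylic acid cycle genes were measured and 0 differed by 1.5-fold (median log2 ratio 0.13), with Mdh2 at 341 CPM in the wild type and at 318 CPM in the knockout. Of 12 other pyruvate entry genes 5 were measured and 0 differed by 1.5-fold, with Dld, the third enzyme of the pyruvate dehydrogenase complex, at 38.3 and 50.2 CPM. Of 8 other pentose phosphate genes 4 were measured and 0 differed by 1.5-fold, with Pgls, the lactonase, at 696 and 549.8 CPM. Of 8 genes of the NADH shuttles 6 were measured and 0 differed by 1.5-fold, with Mdh1 at 218 and 231 CPM. All 5 genes of the serine branch, which leaves glycolysis at 3-phosphoglycerate, were measured and 0 differed by 1.5-fold, with a median log2 ratio of -0.27. Phgdh, its first enzyme, was at 316 and 259.9 CPM. Among T = 0 cells the lists held 3 genes that were higher in the knockout, Pgm2 (6.36 and 14.1 CPM), Ugp2 (8.17 and 13.2 CPM) and Me1, the cytosolic malic enzyme (20.2 and 30.7 CPM). Of all measured genes 12.0% were higher in the knockout among T = 0 cells. Between T ≥3 and T = 0 knockout cells 0 genes of the 9 lists differed by 1.5-fold, against 2.78% higher and 2.99% lower of all.

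Of 10 regulators of these genes 7 were measured, 0 were higher and 1 was lower, Myc, a transcription factor that activates many glycolysis genes (11.7 CPM in wild type and 7.54 CPM in the knockout, 1.56-fold lower). Arrdc4, an arrestin-domain protein related to Txnip, was the most abundant at 59.6 and 51.6 CPM, and Hif1a, the HIF-1 alpha gene, was at 38.3 and 48.7 CPM. With Mesp1 among the T ≥3 knockout cells, 8 of the 10 were measured, 3 were higher and 1 was lower. Of all measured genes 2.94% were higher and 6.67% lower in that comparison. Myc was at 5.71 CPM in Mesp1 = 0 cells and 12.5 CPM in Mesp1 ≥3 cells, Mycn at 13.5 and 25.7 CPM, and Mlxip, named after its values were seen, at 3.79 and 5.78 CPM and so measured only through the Mesp1 ≥3 cells. Txnip, which restrains glucose uptake, was at 29.7 and 18.6 CPM. Emb, another partner protein of the lactate carriers, was at 114 and 253 CPM, 2.21-fold higher.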

How the data were processed

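For each library the authors deposited raw UMI counts by gene and cell barcode, and the file headers give the software as Cell Ranger 4.0.0. Genome build mm10 and the tools Cell Ranger and Seurat are named per the submitters' processing notes. The sources used here state no aligner settings, transcript end read or correction for free RNA, so the isoenzyme shares and the most abundant gene of a list are by UMIs, not by transcript length, and only their differences between sets of cells are read.

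The deposited counts were analysed as follows. Barcodes with at least 1000 genes and at most 10% mitochondrial UMIs were kept. Scrublet (scanpy 1.11.5), run within each library, marked 0 cells at its automatic threshold, so the highest scores were removed at 0.8% per 1000 barcodes, 712 wild type cells (7.72%) and 456 knockout cells (6.18%). The 9651 and 7713 barcodes shared 22 sequences, 16 of them among kept cells. UMIs were summed per set of cells and scaled to CPM. Levels have exact Poisson intervals, ratios exact conditional binomial intervals and shares exact Clopper-Pearson intervals, all at 95%. Ratios, their intervals and the calls were tested on simulated counts. TMM factors came from edgeR 4.0.16. With 1 library per group no p-value was computed.

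All 35 members are named. Of the 9 further lists the text names genes past 1.5-fold and the most abundant gene, and other genes were named after their values were seen. The members and lists were chosen with earlier results of these data known. Alternatives changed the limits on cells, doublet removal, scaling, weight of cells, depth, pseudocount, floor, fold and cut on T. The chromosome 8 and 11 splits, the comparisons by Mesp1 and their alternatives were added after seeing the data. The set of glycolysis genes without Gapdh was also not part of the plan. Gene coordinates are from GENCODE M21 (mm10).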

Additional observations from a re-analysis of the deposited data

How the results depend on the processing

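No paired analysis was possible because each group is 1 library and the groups share no more than 1 replicate number. Leaving out a replicate was not possible for the same reason. Of 186 recomputed counts and medians, 151 stayed within 1.5 times the reported count or within the interval of the median over the members, and 35 did not. The cause of each move was not tested, beyond the changed fold, floor or scaling itself. The share of all genes past the limit was not computed under the alternatives. The counts of members below therefore have no background beside them and show only how the reported counts move.

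For all kept cells, TMM gave 5 members higher and 1 lower in the knockout. Median-of-ratios factors also gave 5 and 1, with a median of 0.071. A looser fold limit gave 15 higher and 1 lower, a 2-fold rule 3 higher, and thinned cells and cells of low chromosome 8 share 1 lower each.

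Between T groups of the knockout, the looser fold limit gave 5 higher and 1 lower, cells of low chromosome 8 share 1 higher, and cells of high share 1 lower.

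For T = 0 cells, TMM gave 3 higher, 2 lower and a median of 0.037, and median-of-ratios factors 3 higher, 3 lower and a median of 0.018. A floor of 20 CPM gave 4 higher, the looser fold limit 14 higher and 2 lower, and the 2-fold rule 1 higher. Cells of low share, cells of high share, and cells without a high chromosome 11 share gave 1 lower each.

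By Mesp1, 2 members were lower with no doublets removed, with TMM and with per-cell means (Hk1 and Pdk1) and with a floor of 20 CPM (Eno3 and Mpc1), 1 with the 2-fold rule and 7 in cells of low chromosome 8 share. Thinned cells gave 1 higher and the looser fold limit 2 higher.

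Of 2345 recomputed log2 ratios of single members 1954 moved by less than their counting interval, 390 by more, and 1 of a member past 1.5-fold changed sign: Hk1 between T groups of wild type was at -0.72 in cells of low chromosome 8 share. Depth limits Pdk2, Pfkfb3, Pfkfb4, Aldoc and Hk1, which were below 5 CPM in both libraries. One library per group leaves the knockout, the clone and the culture confounded, and they cannot be told apart.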
